A study of Mus musculus with 12 samples.

Results

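H19, Afp, Gpc3, Igf2 and Cd24a are genes of the fetal liver, and Zhx2 and Zbtb20 encode repressors that act on some of them after birth. These 7 genes were taken by name from both deposited count tables of mouse liver RNA-seq, which share 20093 genes, and all 7 were listed in both. The members were chosen by name, with measured levels of these same libraries in view, and which of those values guided the choice is not recorded, so every fold change and adjusted p-value below describes where a gene stood among all genes tested and is no independent evidence. The study sequenced 12 livers of male C57BL/6N mice that fell into 4 groups of 3, WT and HuRHep-/- mice on chow and WT and HuRHep-/- mice on an HFCF diet. All mice carried floxed Elavl1 alleles (HuR flox/flox), the gene for the RNA-binding protein HuR, and per the labels all received a virus at 4 to 6 months of age: AAV8-Tbg-Cre in HuRHep-/- mice, where the Tbg promoter limits Cre to hepatocytes, and AAV8-Tbg-null in WT mice. The paper gives an albumin-Cre cross and a younger age instead. HFCF mice ate food with 40 kcal% fat, 2% cholesterol and 20 kcal% fructose for 16 weeks, and the labels give no feeding time for chow. Diet, deposited table and possibly age at collection therefore cannot be told apart in any comparison between diets.

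In the fetal liver, hepatoblasts express a set of genes that is shut down around birth, while adult enzymes and serum proteins take over. H19 and Igf2 are imprinted neighbours that share enhancers: H19, a long noncoding RNA, is made from the maternal copy and Igf2, a growth factor, from the paternal copy. Afp encodes alpha-fetoprotein, the fetal serum protein related to albumin, Gpc3 a cell-surface heparan sulfate proteoglycan, and Cd24a a small glycosylated surface protein found on progenitor and bile duct cells. Zhx2 was found as the gene behind persistent Afp and H19 expression in adult BALB/cJ mice, and Zbtb20 is a zinc finger protein that represses Afp in the adult liver. Several of these genes return in regenerating, injured or malignant liver.

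Whole-gene counts of the targeted gene went against its label. Elavl1 counts were 938, 876 and 948 in chow WT livers and 1475, 1265 and 1261 in livers labelled HuRHep-/- on chow. They were 904, 791 and 849 in HFCF WT livers and 1299, 1242 and 1271 in livers labelled HuRHep-/- on HFCF. Both sets of labelled livers lay above their WT livers with no overlap, by a log2 fold change of 0.41 (adjusted p = 0.0219) in chow and 0.38 (adjusted p = 0.0327) in HFCF, limma over all genes tested. Counts over the whole gene do not show which exons the reads came from, so they neither show nor exclude a lost exon or a loss of HuR protein, and every genotype direction below rests on the labels. The study also assayed HuR in mouse livers by qPCR and Western blot, which are not analysed here. Total counts ran from 30071731 to 35949203 per library, and no pair of libraries held identical counts. The hepatocyte genes Alb, Ttr, Apoa1, Cps1 and Ass1 summed to between 57143 and 106161 CPM (counts per 1000000 after scaling of the libraries) in every library, and the smallest sums were those of HFCF livers labelled HuRHep-/-.

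H19 spans chr7:142575529-142578143 on the minus strand of GRCm38 and is annotated as a long intergenic noncoding RNA with 3 exons. Its exon also holds the hairpin of miR-675, the microRNA cut from this transcript, so reads over the hairpin count as H19 reads. The mature microRNAs themselves were not measured here. They are shown because H19 is their precursor, as RefSeq gives them on GRCm38.p6 at chr7:142577112-142577133 for the 5p arm and chr7:142577078-142577099 for the 3p arm, with the seed (bases 2 to 8) in capitals.
mmu-miR-675-5p: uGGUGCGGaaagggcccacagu
mmu-miR-675-3p: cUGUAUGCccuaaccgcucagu
The arms have different seeds.

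H19 was nearly silent in chow WT livers and abundant in HFCF livers labelled HuRHep-/-. Its counts were 3, 5 and 7 in chow WT livers and 41, 24 and 8 in chow livers labelled HuRHep-/-. They were 37, 10 and 72 in HFCF WT livers and 1006, 1067 and 2288 in HFCF livers labelled HuRHep-/-. Each of these last 3 livers had more than 10 times the H19 counts of any other liver, and a single one of them, replicate 3, held more H19 than the other two together. Scaled by library, the level was 0.165 ± 0.0651 CPM (SD, n = 3), 0.726 ± 0.471, 1.19 ± 1.01 and 38.1 ± 20.4 CPM in that order of groups. The scaling used, TMM, corrects for a few highly expressed genes taking a large share of the reads. In the order of the means, chow WT livers lay just below chow livers labelled HuRHep-/- (0.229 CPM at most against 0.246 CPM at least), the latter overlapped HFCF WT livers, and HFCF livers labelled HuRHep-/- stood apart above all.

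A gene was called when the limma fit put its adjusted p no higher than 0.05, when it differed 1.5-fold or more, and when each group held 10 or more of its counts. Under HFCF, H19 was called higher in livers labelled HuRHep-/-, with a log2 fold change of 5.27 (SE 0.69, adjusted p = 0.0172), or 38.5-fold with a 95% interval from 12.5 to 119. Of 14295 genes tested there, 3.66% were called in either direction and 2.2% were called higher, while 36.8% did not overlap between the groups, and H19 ranked 3 of 314 by fold among those called higher. Leaving out 1 liver at a time kept the call in 2 of 6 fits, without HFCF WT replicate 2 (22.9-fold, adjusted p = 0.0141) and without HFCF WT replicate 3 (61.8-fold, adjusted p = 0.00896). In the other 4 fits, which left out HFCF WT replicate 1 or any liver labelled HuRHep-/-, the fold lay between 29.1 and 45.6 and the adjusted p between 0.0606 and 0.0806. H19 was far higher in the labelled livers in all 6 fits.

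Between diets, H19 was called higher on HFCF in both genotypes. The log2 fold change was 5.82 (SE 0.70, adjusted p = 0.000259) in livers labelled HuRHep-/-, where 19.1% of 14535 genes were called and 54.6% did not overlap, and H19 ranked 4 of 2060 genes called higher. This call remained in 12 of 12 fits that left out a liver, although the fold was 36.6 instead of 56.5 without chow HuRHep-/- replicate 3. In WT livers the log2 fold change was 2.39 (SE 0.70, adjusted p = 0.029), beside 9.41% of genes called and 6.17% called higher, and chow and HFCF WT livers did not overlap, as for 37.6% of genes. That call was lost in 5 of 12 fits, namely without any of the 3 chow WT livers and without HFCF WT replicate 1 or 3, as well as with observation weights (voom, adjusted p = 0.311). Without chow WT replicate 3 the adjusted p was 0.0476 and the call was lost through the minimum of 10 counts. Without HFCF WT replicate 3 the fold was 3.29 instead of 5.26, and without HFCF WT replicate 2 it was 8.82.

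On chow, too few H19 reads passed the filter on low counts (10 counts in at least 3 libraries) for a test. With that filter left out, the log2 fold change on chow was 1.85 (SE 0.61, adjusted p = 0.167), and H19 was not called. The difference between the genotype effects on HFCF and on chow was estimated at 3.42 on the log2 scale (SE 0.99, adjusted p = 0.199), or 10.7-fold, which did not pass. The estimate was 6.97-fold without chow HuRHep-/- replicate 3, 6.4-fold without HFCF WT replicate 2 and 17.2-fold without HFCF WT replicate 3. No gene of 14535 passed in that test of the interaction. The share called was thus 0% with limma as reported, while 2084 genes (14.3%) had an unadjusted p under 0.05 and voom called 1 gene.

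Igf2 lies 88.7 kb upstream of H19 at chr7:142650766-142666816, on the same strand. Like H19, it was highest in HFCF livers labelled HuRHep-/-. Igf2 counts were 14, 10 and 13 in chow WT livers and 15, 15 and 9 in chow livers labelled HuRHep-/-. They were 21, 10 and 26 in HFCF WT livers and 154, 86 and 98 in HFCF livers labelled HuRHep-/-. The last group stood apart, and the other 3 overlapped one another. In CPM, Igf2 measured 0.407 ± 0.0651 (SD, n = 3), 0.392 ± 0.101, 0.562 ± 0.26 and 2.9 ± 0.837 in that order.

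Igf2 was called higher by genotype on HFCF (log2 fold change 2.40, SE 0.39, adjusted p = 0.0235, 5.26-fold with a 95% interval from 2.8 to 9.88). This call also held in 2 of 6 fits that left out a liver, those without HFCF WT replicate 2 or 3, and in the other 4 fits the adjusted p ran from 0.0712 to 0.113. By diet it was called higher in livers labelled HuRHep-/- (log2 fold change 2.84, adjusted p = 0.000346), in 12 of 12 such fits. On chow the genotype difference was -0.07 on the log2 scale (95% interval -0.88 to 0.75), with the sign turned (0.01) when libraries were scaled by total counts, and in WT livers the diet difference was 0.36 (adjusted p = 0.509). The interaction was estimated at 2.48 (SE 0.52, adjusted p = 0.127) and was not called, except without HFCF WT replicate 3 (adjusted p = 0.0494). A limit applies to the level: 62.8% of the exon bases of Igf2 are shared on the same strand with a read-through gene model, Gm49394, which was not a separate line of the tables. The antisense transcript Igf2os stayed at a mean of at most 0.0675 CPM in every group.

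**Figure D1:**
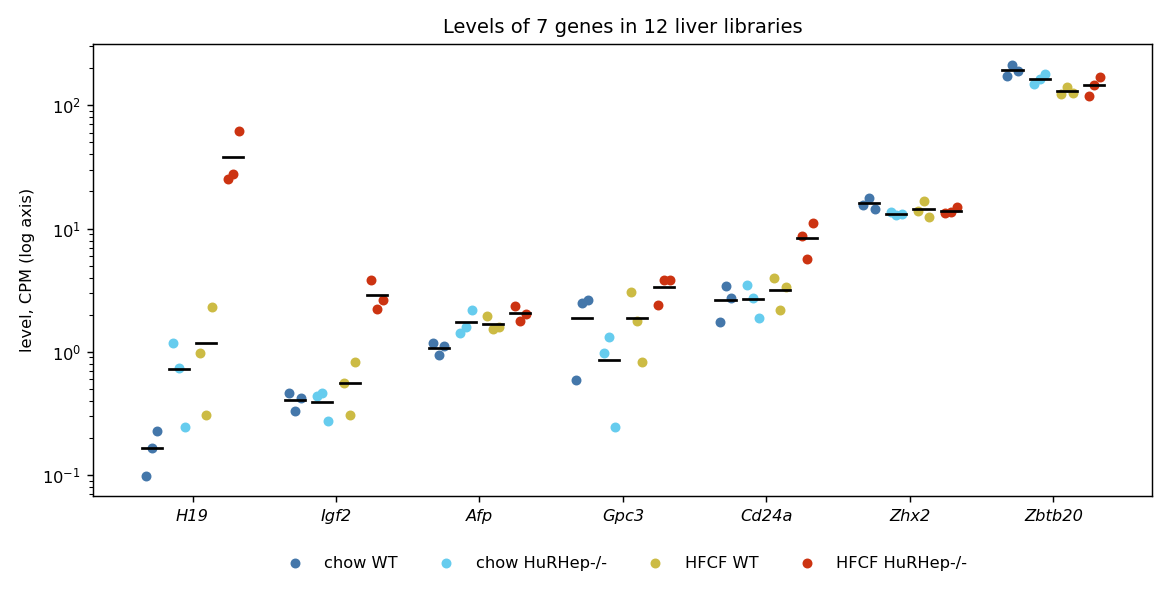
Level of each of the 7 genes in each of 12 livers, in CPM on a log axis; points are livers, bars are means of 3, and colours are the groups. H19, Igf2 and Cd24a of HFCF livers labelled HuRHep-/- lie above all other livers, with means of 38.1, 2.9 and 8.45 CPM, while Afp, Gpc3, Zhx2 and Zbtb20 overlap between genotypes on HFCF.

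No other tested neighbour was called with H19 and Igf2 by genotype on HFCF. Of 18 other genes within 500 kb of H19, a window chosen after the values were seen, 11 could be tested. Igf2 was the only one called by genotype on HFCF, beside 3.66% of all genes tested. With so small a share, a window of 11 tested genes can easily hold no further call. The median log2 fold change of the 11 was -0.03. Mrpl23, a mitochondrial ribosomal protein gene 45.5 kb downstream, had 24.9 CPM in HFCF WT livers and 22.9 CPM in those labelled HuRHep-/-. Cd81, which encodes a tetraspanin, was lower in the labelled livers at an adjusted p of 0.0136, with a log2 fold change of -0.58 that is just under the fold limit. Nctc1, the noncoding neighbour 19.5 kb downstream, was at a mean of 0.0173 CPM in the group where H19 was highest. By diet in livers labelled HuRHep-/-, 4 of the 11 were called higher, beside 14.2% of all genes tested: Igf2, Dusp8 (2.09 on the log2 scale), Tspan32 (1.82) and Lsp1 (1.34). Lsp1 and Tspan32 are known from leukocytes.

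**Figure D2:**
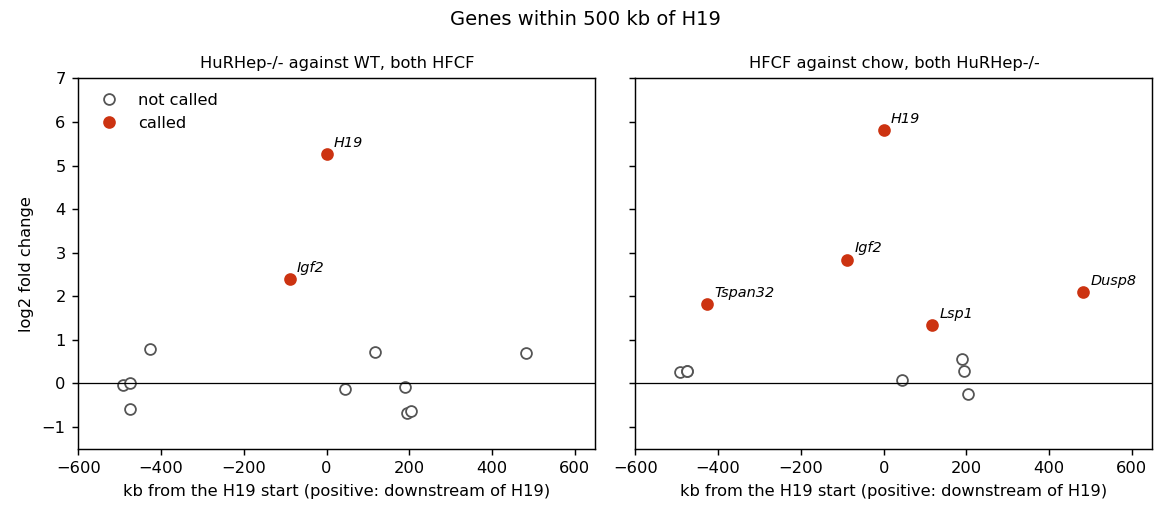
Log2 fold change of H19 and of the tested genes within 500 kb, against the distance of their start from the H19 start in kb, for genotype on HFCF and for diet in livers labelled HuRHep-/-; filled points were called. H19 (5.27) and Igf2 (2.40) stand alone above the others on the left, and Tspan32, Lsp1 and Dusp8 join them on the right.

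Afp, at chr5:90490737-90508907 on the plus strand, was low in every liver and differed little. Afp counts were 36, 28 and 34 in chow WT livers and 49, 51 and 71 in chow livers labelled HuRHep-/-. They were 74, 50 and 50 in HFCF WT livers and 94, 69 and 75 in HFCF livers labelled HuRHep-/-. Chow WT livers lay below the other 3 groups, which overlapped one another. The levels were 1.08 ± 0.128 CPM (SD, n = 3), 1.73 ± 0.403, 1.69 ± 0.23 and 2.05 ± 0.279 CPM. So the mean was 1.21 times higher by genotype on HFCF, where the mean of H19 was 32 times higher.

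Afp was called in 1 of 5 comparisons, diet in WT livers, with a log2 fold change of 0.64 (SE 0.20, adjusted p = 0.04). That call held in 5 of 12 fits that left out a liver, and it was lost with voom (adjusted p = 0.0658) and with no filter on low counts (adjusted p = 0.0657). On chow the genotypes did not overlap, as for 29.5% of 13526 genes tested there, and the log2 fold change of 0.66 did not pass (adjusted p = 0.142). On HFCF the genotype difference was 0.26 (95% interval -0.18 to 0.70, adjusted p = 0.383). The upper end of that interval lies below the lower end of the interval of H19, 3.64.

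Albumin, the adult relative of Afp that starts 29.8 kb upstream, was at a mean of 74057 CPM in chow WT, 52646 in chow livers labelled HuRHep-/-, 45109 in HFCF WT and 41693 in HFCF livers labelled HuRHep-/-. Alb lay lower without overlap in each of the 4 comparisons of groups. In either direction, 29.5% and 36.8% of all genes did not overlap by genotype on chow and on HFCF. By diet these shares were 37.6% in WT and 54.6% in labelled livers. Alb was not called in any of the 4, with adjusted p from 0.0666 to 0.775. Afm, the afamin gene 28.2 kb on the other side, was called lower by diet in WT livers (-0.76 on the log2 scale, adjusted p = 0.00193), where Pf4, 282 kb away, was called higher (0.98, adjusted p = 0.0351). By diet in labelled livers, 4 of 14 genes tested within 500 kb of Afp were called, beside 19.1% of all genes: Pf4, Cxcl2 and Mthfd2l higher and 5830473C10Rik lower. No gene within 500 kb of Afp was called by genotype on either diet, among 13 tested on chow and 14 on HFCF, beside 2.23% and 3.66% of all genes.

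Gpc3, at chrX:52272426-52613950 on the minus strand, varied widely between livers of a group. Its counts were 18, 74 and 80 in chow WT livers and 34, 43 and 8 in chow livers labelled HuRHep-/-. They were 116, 58 and 26 in HFCF WT livers and 97, 148 and 141 in HFCF livers labelled HuRHep-/-. All neighbouring groups in the order of the means overlapped. The levels were 1.89 ± 1.13 CPM (SD, n = 3), 0.854 ± 0.554, 1.89 ± 1.12 and 3.35 ± 0.808 CPM. The SD reached 59.6% of the mean in chow WT livers and 64.9% in chow livers labelled HuRHep-/-.

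Gpc3 was not called by genotype. On chow the log2 difference was -1.16 (95% interval -2.89 to 0.57), and it was -1.85 without chow WT replicate 1 and -0.44 without chow HuRHep-/- replicate 3. The difference was 0.97 on HFCF (95% interval -0.11 to 2.04, adjusted p = 0.205). Gpc3 was called higher by diet in livers labelled HuRHep-/- (2.22 on the log2 scale, SE 0.69, adjusted p = 0.025), and this rested on chow HuRHep-/- replicate 3, the liver with 8 counts. Without it the log2 fold change was 1.51 (adjusted p = 0.0995), and without HFCF HuRHep-/- replicate 2 or 3 the adjusted p was 0.0713 or 0.0694. Of the related glypicans, Gpc6 was called higher in the same comparison (1.45 on the log2 scale). Gpc1 was called higher by diet in both genotypes (2.07 in WT livers and 2.05 in livers labelled HuRHep-/-) and lower by genotype on HFCF (-0.59, adjusted p = 0.0282).

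Cd24a, at chr10:43578284-43584265 on the plus strand, separated HFCF livers labelled HuRHep-/- from the rest. Cd24a counts were 53, 103 and 84 in chow WT livers and 121, 88 and 61 in chow livers labelled HuRHep-/-. They were 150, 71 and 105 in HFCF WT livers and 347, 218 and 410 in HFCF livers labelled HuRHep-/-. The first 3 groups overlapped, and the fourth lay above them without overlap. In CPM the groups measured 2.64 ± 0.854 (SD, n = 3), 2.7 ± 0.815, 3.15 ± 0.909 and 8.45 ± 2.7. Of the 31-base words of its longest transcript, 7.11% also occur in other genes, which limits what counting can assign there.

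By genotype on HFCF, Cd24a was called higher with a log2 fold change of 1.39 (SE 0.30, adjusted p = 0.0426), or 2.63-fold with a 95% interval from 1.61 to 4.28. This call is the weakest of the 3: it was lost in 6 of 6 fits that left out a liver, with adjusted p from 0.0529 to 0.151, and with voom (adjusted p = 0.0522). By diet in livers labelled HuRHep-/- the log2 fold change was 1.63 (SE 0.33, adjusted p = 0.00319), and that call remained in 12 of 12 fits. On chow the genotype difference was 0.05 (95% interval -0.67 to 0.76). The interaction, 1.37 on the log2 scale (SE 0.47, adjusted p = 0.242), was not called.

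The 2 repressor genes were expressed in every liver and were not called in any of the 5 comparisons. Zhx2, at chr15:57694665-57839832 on the plus strand, had 474, 532 and 444 counts in chow WT livers and 473, 413 and 428 in chow livers labelled HuRHep-/-. It had 522, 548 and 388 counts in HFCF WT livers and 538, 526 and 554 in HFCF livers labelled HuRHep-/-. The livers of all groups were alike within 12.3 to 17.8 CPM. On chow, Zhx2 was lower in the labelled livers without overlap, with means of 13.2 against 16 CPM, a log2 fold change of -0.26 that did not pass (adjusted p = 0.164). On HFCF, where H19 and Igf2 differed, the difference of Zhx2 was -0.04 on the log2 scale, with a 95% interval from -0.32 to 0.25, and its sign turned (0.12) when libraries were scaled by total counts.

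Zbtb20, at chr16:42875881-43642602 on the plus strand, had 5283, 6388 and 5845 counts in chow WT livers and 5153, 5227 and 5892 in chow livers labelled HuRHep-/-. It had 4704, 4615 and 3981 counts in HFCF WT livers and 4774, 5597 and 6358 in HFCF livers labelled HuRHep-/-. The genotypes overlapped on both diets. In WT livers, Zbtb20 was lower on HFCF without overlap, 130 ± 9.06 against 193 ± 19.9 CPM (SD, n = 3), a log2 fold change of -0.56 (SE 0.13, adjusted p = 0.00871). The fold was under the limit of 1.5, so it was not called, except without chow WT replicate 1 or HFCF WT replicate 2. By genotype on HFCF the difference was 0.12 on the log2 scale (95% interval -0.18 to 0.43). Of the family of Zhx2, Zhx3 was called lower by diet in both genotypes (-0.59 in WT livers and -0.80 in livers labelled HuRHep-/-), and Zhx1 was called lower in the latter (-0.60).

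Per kilobase of exon the genes were ordered differently in chow WT livers and in HFCF livers labelled HuRHep-/-. On the scale of CPM per kb, chow WT livers had 0.067 of H19, 0.0711 of Igf2, 0.32 of Afp, 0.704 of Gpc3, 1.03 of Cd24a, 3.6 of Zhx2 and 6.28 of Zbtb20. The repressors were thus the most abundant, and H19 and Igf2 the least, within the spread of one another. In HFCF livers labelled HuRHep-/-, H19 stood at 15.5 CPM per kb, above Zbtb20 (4.72), Cd24a (3.27), Zhx2 (3.15), Gpc3 (1.25), Afp (0.609) and Igf2 (0.507). H19 was thus first of the 7 in that group on this scale. It divides by the merged length of all annotated exons, 2460 bases for H19 and 30730 for Zbtb20. In CPM, Zbtb20 (145) was above H19 (38.1) in that group.

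**Figure D3:**
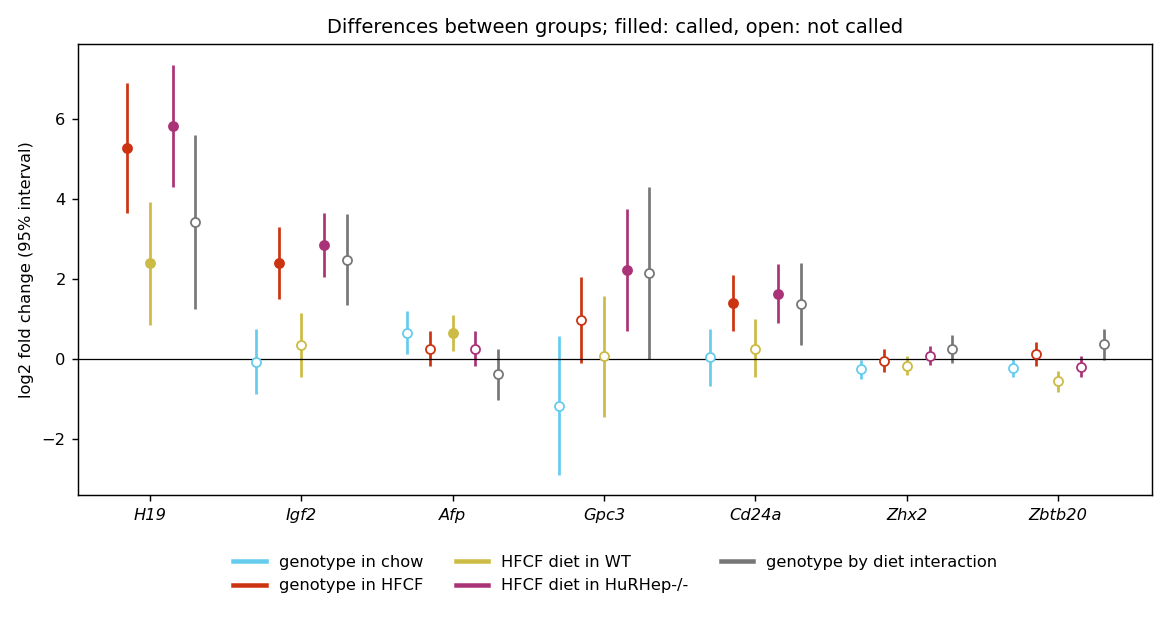
Log2 fold change of each gene in the 5 comparisons, with 95% intervals; filled points were called and open points were not, and H19 has no test by genotype on chow. H19, Igf2 and Cd24a are filled for genotype on HFCF (5.27, 2.40 and 1.39), and no point of the repressors is filled.

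Counted over the 7 genes, 0 of 6 tested were called by genotype on chow, beside 2.23% of all genes tested, and at an unadjusted p under 0.05 limma gave 23.5% of all genes there. By genotype on HFCF 3 of 7 were called, all higher, beside 2.2% of all genes called higher. By diet 2 of 7 were called higher in WT livers (H19 and Afp), beside 6.17% of all genes, and 4 of 7 in livers labelled HuRHep-/- (H19, Igf2, Cd24a and Gpc3), beside 14.2%. The median log2 fold change of the members was 0.97 by genotype on HFCF and 1.63 by diet in livers labelled HuRHep-/-, where the median of all genes tested was 0.00 in both. On chow it was -0.15 by genotype, beside 0.01 for all genes. The comparisons share groups, so their counts are not independent of one another.

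Among 18 other fetal and oncofetal liver genes, 13 could be tested by genotype on HFCF. Of these, 12 had a log2 fold change above 0, with a median of 0.86 beside 0.00 for all genes tested. Genes high only in the labelled livers, such as Dlk1, passed the filter on low counts through them, which can tilt this count and median upward. Calls were made for 3 of the 13. Tspan8 and Prom1, which encode membrane proteins found on progenitor and duct cells, were the 2 called higher, beside 2.2% of all genes. The 1 called lower was Gpc1, beside 1.46%. Tspan8 had 74, 25 and 51 counts in HFCF WT livers and 233, 167 and 279 in those labelled HuRHep-/- (log2 fold change 2.07, adjusted p = 0.0295). Dlk1, an imprinted fetal gene, had 0, 0 and 6 counts in HFCF WT livers and 34, 31 and 34 in those labelled HuRHep-/-. Its groups did not overlap, and its adjusted p was 0.0464, but it missed the minimum of 10 counts over the WT group and was not called. Dlk1 was tested only because the labelled livers passed the filter, so that adjusted p depends on the group where it was high. Spink1, a trypsin inhibitor, had 7, 1 and 32 counts against 72, 103 and 126, and did not pass (adjusted p = 0.0753).

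By diet in livers labelled HuRHep-/-, 9 of 14 tested genes of that list were called higher, beside 14.2% of all genes. They were Spink1 (2.59 on the log2 scale), Tspan8 (2.27), Gpc1 (2.05), the cyclin gene Ccnd1 (1.96), Sox4, Epcam, Prom1, Igf2bp2 and Sox9. In WT livers 2 of 14 were called higher by diet, Gpc1 and Igf2bp2, beside 6.17% of all genes. None of 12 was called by genotype on chow, beside 2.23%. Igf2bp2 encodes an RNA-binding protein that binds Igf2 mRNA. Epcam and Sox9 are also bile duct markers and appear in that list below. Of 6 fetal-type isozymes, 4 were called higher by diet in livers labelled HuRHep-/-: Hk2 (2.20), Pkm (1.66), Hk1 (2.29-fold) and Pygb (0.94). None of the 6 was called by genotype on chow or on HFCF, beside 2.23% and 3.66% of all genes. Pkm and Hk2 were called higher by diet in WT livers, beside 6.17%. Of 6 adult-type isozymes only Gls2, the liver glutaminase, was called, lower by diet in WT livers (-1.01) and in livers labelled HuRHep-/- (-0.69). Of all genes, 3.24% and 4.9% were called lower in these comparisons.

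**Figure D4:**
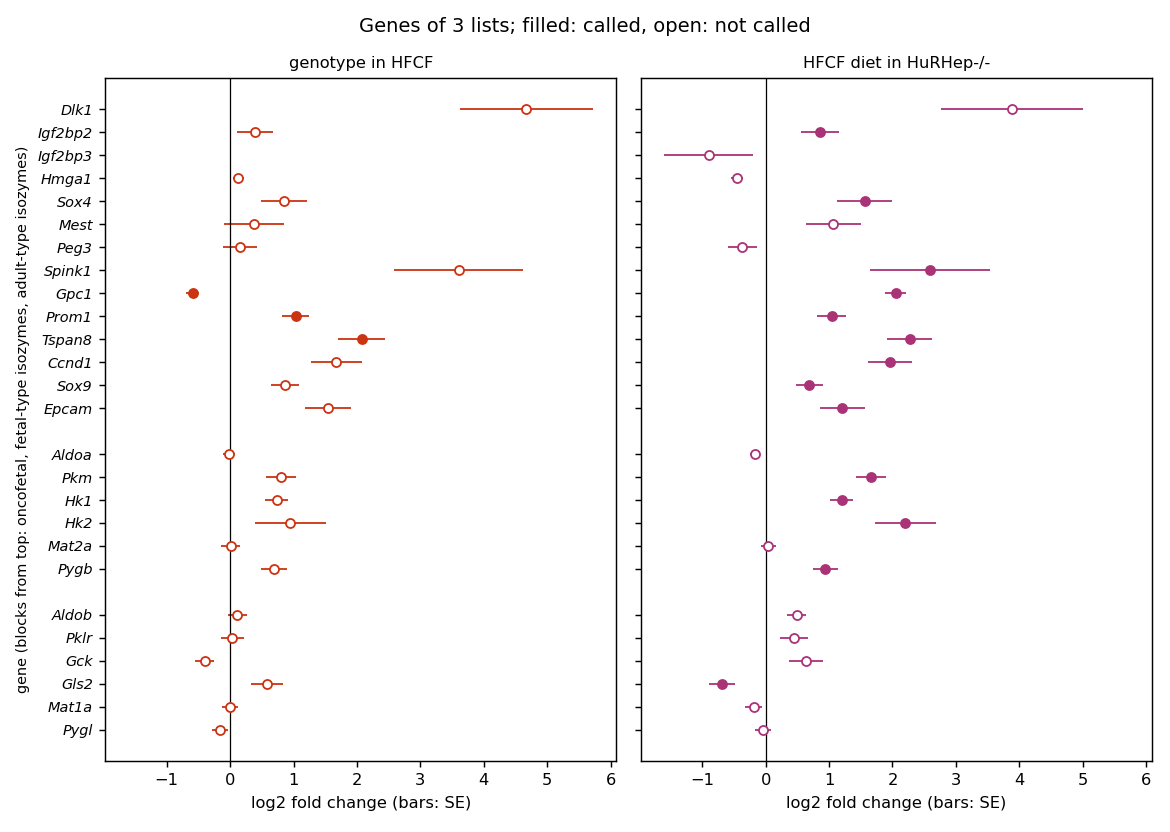
Log2 fold change with its SE for the tested genes of 3 lists, by genotype on HFCF and by diet in livers labelled HuRHep-/-; filled points were called. On the left Tspan8 and Prom1 are filled above 0 and Gpc1 below 0, and on the right 9 oncofetal genes and 4 fetal-type isozymes are filled above 0 and Gls2 below 0.

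Other imprinted genes moved in both directions. Of 15 genes of the imprinted growth network, 13 could be tested by genotype on chow and 14 on HFCF. Rian, a noncoding RNA of the Dlk1-Meg3 domain, was the only one called, beside 2.23% and 3.66% of all genes. It was higher in the labelled livers on chow (log2 fold change 2.93, adjusted p = 0.0414) and on HFCF (1.88, adjusted p = 0.0359). Unlike H19, Rian was called lower by diet in WT livers (-2.07) and in livers labelled HuRHep-/- (-3.10), and so was Meg3 (-1.74 and -2.90). On chow, Rian counts were 37, 26 and 23 in WT livers and 96, 223 and 616 in livers labelled HuRHep-/-, and the size of its change leaned on replicate 3 of the latter. Without it the log2 fold change was 2.23 by genotype on chow (adjusted p = 0.0387) and -2.40 by diet in labelled livers, where that of Meg3 was -2.22, and without replicate 1 of the same group these values were 3.60, -3.79 and -3.51. The chow call of Rian was lost without replicate 2 of that group (adjusted p = 0.149) or without WT replicate 1, 2 or 3 (0.0926, 0.0735 and 0.123), and the HFCF call without HFCF WT replicate 1 (0.0863), in 1 of the 3 such fits that could test it. On HFCF, Rian passed the filter on low counts only through the labelled livers. Its call there thus depends on the group where it was high and is no independent evidence. By diet in WT livers Rian was called in 10 of 12 such fits and Meg3 in 4 of 12. By diet in livers labelled HuRHep-/-, 4 of 14 tested were called higher, beside 14.2% of all genes: Plagl1 (1.21), Ndn (1.14), Cdkn1c (0.72) and Dcn. The 2 called lower, Rian and Meg3, stood beside 4.9% of all genes there and 3.24% in WT livers. Plagl1 encodes a zinc finger factor known to act on this network, and Dcn is also a stellate cell marker.

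Of 17 factors known to act on Afp or the H19-Igf2 domain, none was called by genotype on chow or on HFCF, where 16 could be tested, beside 2.23% and 3.66% of all genes. Ctcf, whose protein binds the control region between Igf2 and H19, differed by -0.02 on the log2 scale in both. By diet, Foxa3 was called lower in WT livers (0.501-fold, adjusted p = 0.00997) and Tead2 higher in livers labelled HuRHep-/- (1.15, adjusted p = 0.0135). Of 7 other genes described as dependent on Zhx2 or Zbtb20, Cyp2a4, a steroid hydroxylase, was called higher by genotype on HFCF. Cyp2a4 had 26, 14 and 271 counts in HFCF WT livers and 6229, 3128 and 3300 in those labelled HuRHep-/- (log2 fold change 6.21, adjusted p = 0.0244), and its near-identical copy Cyp2a5 may share its reads. WT replicate 3 held most of the WT counts, and without it the log2 fold change was 7.54 (adjusted p = 0.000511), while without WT replicate 2 it was 5.38 (adjusted p = 0.0365). The call was lost without WT replicate 1 (adjusted p = 0.0762) or labelled replicate 1, 2 or 3 (0.113, 0.0903 and 0.0773). On chow Lpl, the lipoprotein lipase gene, and Mup20, a gene of the large family of major urinary proteins, were called higher (1.42 and 1.13). By diet in livers labelled HuRHep-/- Cyp2a4 and Lpl were called higher, and Elovl3, Cyp4a12a and Mup20 lower. The genes of this list thus moved in both directions. The list does not hold the direction in which each gene depends on Zhx2 or Zbtb20, so the directions were not compared with it. Leaving out 1 library at a time, none of the 3 calls by genotype on chow and none of the 7 on HFCF among the genes of all lists held in every fit. Of their calls by diet, 8 of 16 in WT livers and 31 of 51 in labelled livers did.

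Of the markers of other cell types, 2 cholangiocyte genes were called by genotype on HFCF and none of the stellate, macrophage, endothelial, B cell, neutrophil, erythroid or dividing cell lists was. In bulk tissue, fewer cells of a type and less RNA per cell cannot be told apart. The 7 cholangiocyte markers, 6 of them tested, summed to 167, 134 and 245 CPM in HFCF livers labelled HuRHep-/- and to 88.6, 39.2 and 86.9 CPM in HFCF WT livers. These groups did not overlap. Most of each sum was Spp1, the osteopontin gene, with 144, 115 and 215 CPM against 75.7, 30.7 and 77.7 CPM, and Spp1 was not called by genotype. Replicate 3 of the labelled livers had the highest sum and the highest H19 and Cd24a, while Igf2 was highest in replicate 1. Krt19 and Krt7, keratins of bile duct cells, were called higher by genotype on HFCF (1.32 and 1.40 on the log2 scale), beside 2.2% of all genes. Leaving out 1 liver at a time kept the call of Krt19 in 2 of 6 fits and that of Krt7 in 1 of 6. The adjusted p reached 0.113 and 0.109. All 6 tested markers were called higher by diet in livers labelled HuRHep-/-, beside 14.2% of all genes. Cftr was too low to test, and no marker of the list was at 0 throughout a group. On chow the sums were 35.7 to 79.8 CPM in WT livers and 47.8 to 78.5 CPM in labelled livers, which overlap, as did Cd24a.

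The 6 stellate markers summed to 359 to 452 CPM in HFCF livers labelled HuRHep-/- against 162 to 367 CPM in HFCF WT livers, with none called by genotype and all 6 called higher by diet in labelled livers. The 6 genes of dividing cells summed to 13.2 to 17.3 CPM against 3.66 to 10.7 CPM, without overlap, with none called by genotype and 5 of 6 called by diet in labelled livers. Macrophage markers summed to 259 to 436 CPM against 190 to 303 CPM, and sinusoidal endothelial markers to 119 to 121 CPM against 104 to 123 CPM. By diet, 3 of 6 macrophage markers were called higher in WT livers (Cd68, Cd5l and Vsig4) and 3 of 6 in labelled livers (Adgre1, Cd68 and Cd5l), beside 6.17% and 14.2% of all genes called higher. The endothelial marker Pecam1 was called higher by diet in labelled livers and the stellate marker Lrat in WT livers. Of the 5 hepatocyte genes, Cps1 and Ass1, both of the urea cycle, were called lower by diet in WT livers and Cps1 in labelled livers. HFCF WT replicate 2, the HFCF liver with the fewest H19 counts, also had the lowest sums of cholangiocyte, stellate and dividing cell markers of the HFCF livers. The neutrophil markers found summed to 4.33 to 5.61 CPM against 2.26 to 3.4 CPM, without overlap, and 1 of 3 tested, Csf3r, was called higher by diet in labelled livers. B cell, neutrophil and erythroid markers had no gene called by genotype on either diet. The part of any of these cells in the values of H19, Igf2 and Cd24a was not tested.

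**Figure D5:**
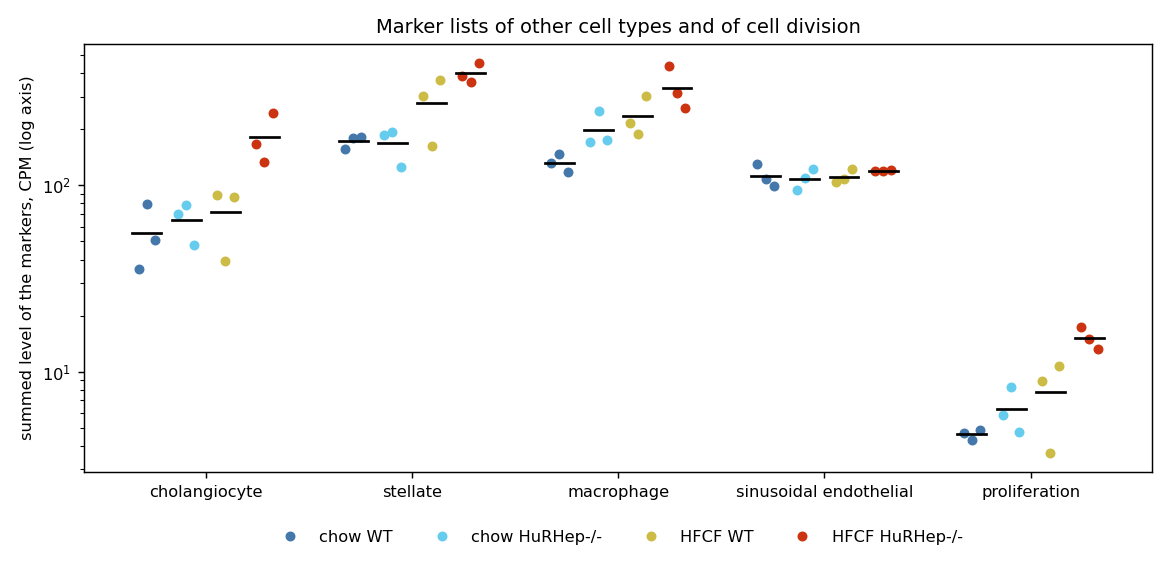
Summed CPM of the markers of 5 lists in each of 12 livers, on a log axis; points are livers, bars are means of 3, and colours are the groups. Cholangiocyte sums of HFCF livers labelled HuRHep-/- (134 to 245 CPM) lie above those of HFCF WT livers (39.2 to 88.6 CPM), and sinusoidal endothelial sums overlap.

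The genes whose levels ran most like those of H19, Afp and Cd24a were found among 12008 genes by Pearson's r of log2 CPM over the 12 livers. For H19 they were Wtip (r = 0.981), Pck2 (0.971) and Arhgef2 (0.970). For Cd24a they were Sfxn3, Ddr1 (both 0.974) and Adamtsl2 (0.966). For Afp they were Ndufaf3 (0.945), Pot1b (0.900) and Poc1b (0.893). These coefficients describe the 12 livers, which differ by group: Wtip, for example, was at 1.31, 1.56, 1.63 and 3.03 CPM in the 4 groups in the order above. After the group means were removed, r with H19 was 0.90 for Wtip, 0.74 for Pck2 and 0.85 for Arhgef2, and r with Cd24a was 0.90 for Sfxn3, 0.94 for Ddr1 and 0.92 for Adamtsl2. With Afp it was 0.82 for Ndufaf3, 0.73 for Pot1b and 0.62 for Poc1b. The genes were picked by r over these same 12 livers, so high values within groups are in part a product of that choice and no separate check.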

How the data were processed

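RNA-seq of whole liver was measured in 12 liver samples, 3 per group, grouped by the labels. The authors aligned reads in CLC Genomics Workbench to RefSeq GRCm38.p6 with reverse strand alignment and deposited read counts per gene, without normalization, in a chow table (20775 genes) and an HFCF table (22709 genes). The values are text with a comma as digit separator, which was removed. All were then whole numbers, and limma on log2 CPM was the test; no count model was run. The rule by which a read was counted is not given in the sources used here. RNA integrity numbers were above 6.0 per the labels. Replicates are separate liver samples in the labels. The paper counts the chow samples as mice, but neither it nor the labels say so for HFCF, where p-values measure the spread between these samples.

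The 7 genes, all lists and the tests were chosen with earlier results of these data known. Counts were scaled by TMM and taken to log2 CPM with a pseudocount of 0.5, so fold changes of low genes are understated. Genes with at least 10 counts in 3 libraries and 15 in all were kept. Limma 3.58.1 in R 4.3.3 (lmFit, eBayes with a variance trend) gave p-values, adjusted by Benjamini-Hochberg over all genes tested: 13526 on chow and 14295 on HFCF, each from its 6 libraries, and 14535 for diet and interaction, from all 12. Calls used the limits in the study's methods (adjusted p 0.05, fold 1.5), with 10 counts per group in place of an RPKM limit. The fit was run on simulated counts with the same setting of the spread for every gene, so that run does not speak for genes as variable as H19 or Gpc3. Named were the 7 genes, Elavl1, the 3 genes most like H19, Afp and Cd24a, and from each list up to 4 members called, by size of change. Genes near H19 and Afp, and genes named beyond the rule (Dlk1, Ctcf, Mrpl23, Cd81, Nctc1, Igf2os, further list members), were chosen after their values were seen. Annotation is GENCODE on GRCm38, and sequences are from RefSeq. Some genes of the lists are not reported here and were left out of their counts.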

Additional observations from a re-analysis of the deposited data

How the results depend on the processing

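With no limit on the fold, 571 genes were called by genotype on chow, 978 on HFCF, 3514 by diet in WT livers and 5650 by diet in livers labelled HuRHep-/-. The interaction gave 10 genes with scaling by total counts, chosen after seeing the data, 1 with no filter on low counts and 1 with voom. Leaving out 1 library at a time gave 8 to 320 genes by genotype on chow, 28 to 848 on HFCF, 850 to 1786 and 2153 to 2862 by diet in WT and labelled livers, and 0 to 39 for the interaction. On HFCF 4 of 6 such fits, without HFCF WT replicate 1 (39 genes) or labelled replicate 1 (28), 2 (32) or 3 (97), fell below 100 genes. The direction of small log2 differences turned. Without 1 library, values ran from -0.20 to 0.16 for Igf2 and from -0.23 to 0.28 for Cd24a by genotype on chow, from -0.13 to 0.08 for Zhx2 by genotype on HFCF, and from -0.62 to 0.57 for Gpc3 and -0.01 to 0.51 for Cd24a by diet in WT livers. With total counts, Igf2 reached 0.01 by genotype on chow, Zhx2 0.12 by genotype on HFCF and 0.01 by diet in WT livers, and Zbtb20 0.04 by diet in labelled livers. That scaling moved the median of all genes by up to 0.23 on the log2 scale. The cause was not tested. Of 578 values of the 7 genes under alternatives, 529 kept direction and side of the threshold, 33 lost a call, 3 gained one and 13 turned. The diet calls of H19, Igf2 and Cd24a in labelled livers held in all 19 alternatives run for each.

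Labels number replicates 1 to 3 in each group, and deviations of libraries sharing a number correlated between -0.136 and 0.19. Between the genotypes on HFCF the values were 0.0884, 0.19 and 0.0861. With 3 libraries per group, this does not settle whether libraries sharing a number belong together, and the main fits used no block. With a replicate block, 225 genes were called by genotype on chow, 764 on HFCF, 1362 and 2750 by diet in WT and labelled livers and 0 for the interaction. The log2 fold change of H19 by genotype on HFCF was 5.27 (adjusted p = 0.0101), with an SE of 0.36 instead of 0.69. That of Cd24a had an SE of 0.15 instead of 0.30.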
